A study of Mus musculus with 32 samples.

Results

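Kinesins are motor proteins that turn the energy of ATP into movement along microtubules or into the remodelling of microtubule ends. Some of them build and pull apart the mitotic spindle of a dividing cell, whereas others carry vesicles, organelles and protein complexes along axons and dendrites, so that a cortical progenitor and the neuron it produces use different parts of the family. The kinesin genes of the mouse were taken as all symbols of the Kif series followed by a number and, where present, a letter from a to c and a further digit. Of 32285 genes in the deposited lists, 38 symbols fitted, and the 35 with at least 50 UMIs over all libraries were kept. A UMI marks 1 captured RNA molecule. Kif2b with 0 UMIs, Kif12 with 2 and Kif28 with 19 lay outside the minimum, and Kif17 with 219 and Kif19a with 291 were the lowest of those inside. Kinesins whose symbols have another form, such as Kifc1, Kifc2, Kifc3 and Cenpe, were not members and were read as partner genes.

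The study profiled single cells of the dorsal telencephalon, from which the cerebral cortex grows, in C57BL/6J mouse embryos. Embryos were wild type (WT) or carried 1 working copy of Chd8 (Chd8+/-, labelled Chd8 het), a gene for a chromatin remodeller, and were untreated as far as the labels say. Tissue came from 4 embryonic ages, the youngest E12.5 and then E14.5, E16.0 and finally E17.5. Its medial part was cut away, and each stage held 4 pairs. A pair joins a WT embryo with a het littermate of its own sex. Male pairs are called M1 and M2, and female pairs F1 and F2. This gave 32 libraries in 8 groups of 4, each library from 1 embryo. Libraries were made with the 3′ chemistry of 10x Genomics, version v2, which reads the 3′ end of each transcript.

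The libraries held between 14710694 and 66499864 UMIs and between 2399 and 6951 cells after filtering, 138226 cells in all. Chd8 was lower in the het than in the WT embryo in 15 of 16 pairs, with a log2 fold of -0.28 ± 0.07 (SE) in edgeR's quasi-likelihood test and an adjusted p of 0.109. Any 2 libraries shared at most 66 barcodes, or 1.30% of the smaller one. In the M1 and F1 pairs at E17.5, 4 libraries, the early response gene Fos stood at 126 to 214 CPM (UMIs per 1000000), against 52.5 to 77.3 in the M2 and F2 pairs, and the heat shock gene Hspa1a at 20.7 to 40.6 against 0.866 to 8.16. Stage folds over all cells that lost a call or moved by over 1.5 times without these 4 libraries are given both ways where the member is described.

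Cells were grouped by the markers that the choice of members names. A cell was Top2a-detected, Eomes-detected or Neurod6-detected when it held at least 1 UMI of that gene. Top2a encodes the topoisomerase of dividing cells and so marks a cycling state, Eomes marks intermediate progenitors, and Neurod6 marks excitatory neurons. The groups held 37393, 31829 and 85015 cells, with median depths of 9357, 6753 and 5875 UMIs per cell. Other markers followed the names as a gradient. Mki67, a proliferation gene, had a median over libraries of 150 CPM in Top2a-detected, 58.3 in Eomes-detected and 35.1 in Neurod6-detected cells, the progenitor gene Sox2 had 264, 128 and 59.0, and the neuronal gene Neurod2 had 179, 405 and 808.

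The groups overlap, because a cell can hold UMIs of several markers. Of Top2a-detected cells, 18.4% also held Neurod6 at E12.5 and 53.6% at E17.5. Of Neurod6-detected cells, 35.2% also held Top2a at E12.5 and 7.04% at E17.5. The overlap was greatest for Eomes-detected cells, of which 75.3% also held Neurod6 (62.3% at E12.5 and 83.1% at E17.5) and 14.9% held Eomes alone. Their sums held more Neurod6, at a median of 836 CPM, than Eomes, at 609, so they are no separate class of intermediate progenitors, and contrasts with them compare overlapping groups. Free RNA can add to this. Of 1154 vessel, blood and immune cells, which should lack Neurod6 and Eomes, 19.6% held a Neurod6 UMI and 6.15% an Eomes UMI, at a median of 8107.5 UMIs per cell against 6287 over all cells. Values in cells with 1 marker and neither of the others are therefore set beside several of the main ones.

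The members fell into 4 role lists: 11 spindle kinesins, 13 cargo carriers, 5 regulators of microtubule ends and growth, and 6 kinesins of cilia and Hedgehog signalling. By UMIs over all barcodes, the family was led by Kif5c with 189849, Kif5b with 185154, Kif1b with 133330, Kif21a with 122905 and Kif22 with 90707. These are counts of 3′ ends, so they are not scaled by transcript length. The strand used in counting is not given in the sources used here. Reads of a member and of an annotated gene on the opposite strand over it can therefore not be told apart, which touches Kif20a (with Cdc23), Kif2a (Dimt1), Kif18a (Mettl15), Kif4 (Pdzd11), Kif7 (Ticrr), Kif22 (Gm31749) and Kif21a (Gm49545), among others.

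Since 10 of the 11 spindle kinesins fell between stages over all cells, promoter sequences are given for 4 of them, although within Top2a- and Eomes-detected cells the spindle kinesins went both ways. Many genes of the G2 and M phases carry a cell cycle genes homology region near the start, whose core TTTGAA, read as TTCAAA on the other strand, is bound by the DREAM complex, often near CCAAT boxes, which read as ATTGG on the other strand. RefSeq promoters (build GRCm38.p6, from 250 bases before to 50 after the start) were at hand for 29 of 35 members. The following pieces are read 5′ to 3′ on the strand of the gene, with the core and CCAAT letters in capitals. Kif11, Kif15, Kif22 and Kif2c are spindle kinesins, and Kif5c and Kif3c are cargo kinesins shown for contrast.
Kif11: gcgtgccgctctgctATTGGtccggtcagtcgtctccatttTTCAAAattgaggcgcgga
Kif15: tccgttggggcgccaaaTTCAAAtctgcgg
Kif22: ggaggcggggccccggtaaTTCAAAagaga
Kif2c: agcccaggctgctctTTCAAAcctgagtaa
Kif5c: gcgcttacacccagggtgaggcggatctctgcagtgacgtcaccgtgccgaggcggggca
Kif3c: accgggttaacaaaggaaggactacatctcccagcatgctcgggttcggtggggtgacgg

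The pieces lie at chr19:37376322-37376381 on the plus strand for Kif11, chr9:122951045-122951074 plus for Kif15, chr7:127042427-127042456 minus for Kif22, chr4:117178861-117178890 minus for Kif2c, chr2:49619226-49619285 plus for Kif5c and chr12:3365072-3365131 plus for Kif3c. All lie upstream of the RefSeq start. The core shown begins 19 bases before that start in Kif11 and Kif15 and 17 before it in Kif22. In Kif2c it begins 103 bases before, so it is not among those counted below within 25 bases. The GENCODE M21 models of Kif15, Kif22 and Kif2c begin farther upstream. The pieces of Kif22 and Kif2c lie within those models, and that of Kif15 does except for its first base. Gene positions given with single members are those of GENCODE M21 on build GRCm38. TTTGAA, on either strand, was in the promoter of 9 of 10 spindle kinesins with an entry, Kif18a being the one without, against 17.9% of 32851 promoters in the table. It was in 1 of 10 cargo kinesins (Kif1a), 1 of 4 microtubule regulators (Kif26b) and 1 of 5 cilia kinesins (Kif27). Within 25 bases of the start it was found in 7 of 10 spindle kinesins and in 2.65% of all promoters. CCAAT was in 6 of 10 spindle, 3 of 10 cargo and 3 of 5 cilia kinesins, in 1 of 4 microtubule regulators and in 37.4% of all promoters. A match of letters is a description and no measured binding site, and a window without the letters says nothing about the factor.

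Over all cells, spindle kinesins were lower and 6 carriers higher at E17.5 than at E12.5. Calls between stages needed an adjusted p under 0.05 and at least a 2-fold difference, in a contrast of 8 libraries against 8 that averaged both genotypes. Of 35 members, 9 rose, where 22.9% of 15887 genes tested rose, and 12 fell, where 14.6% of genes fell. The risen ones were Kif5a, Kif21b, Kif3c, Kif13b, Kif26b, Kif9, Kif1a, Kif3b and Kif1b. The fallen ones were 10 of the 11 spindle kinesins and the cilia kinesins Kif24 and Kif7. Stage cannot be told apart from the day, litter and sequencing of its libraries. Markers of other cells differed between the stages too. The 15 markers of vessel, blood and immune cells summed to 65.6 to 129 CPM at E12.5 and 158 to 565 at E17.5, and the 6 interneuron markers to 2.08 to 42.9 and 71.8 to 293. Their part in the calls was not tested. In sums over cells, fewer cells of a type and less RNA per cell cannot be told apart. When libraries were scaled by their totals alone, the median of all genes moved from 0.07 to 0.34 on the log2 scale and the split of members became 12 higher and 7 lower. The share of all genes called under that scaling is not given here, so this split cannot be set against it. Log2 folds below are on the TMM scale, relative to the bulk of genes, whereas CPM values are scaled by the library's UMI total.

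**Figure D1:**
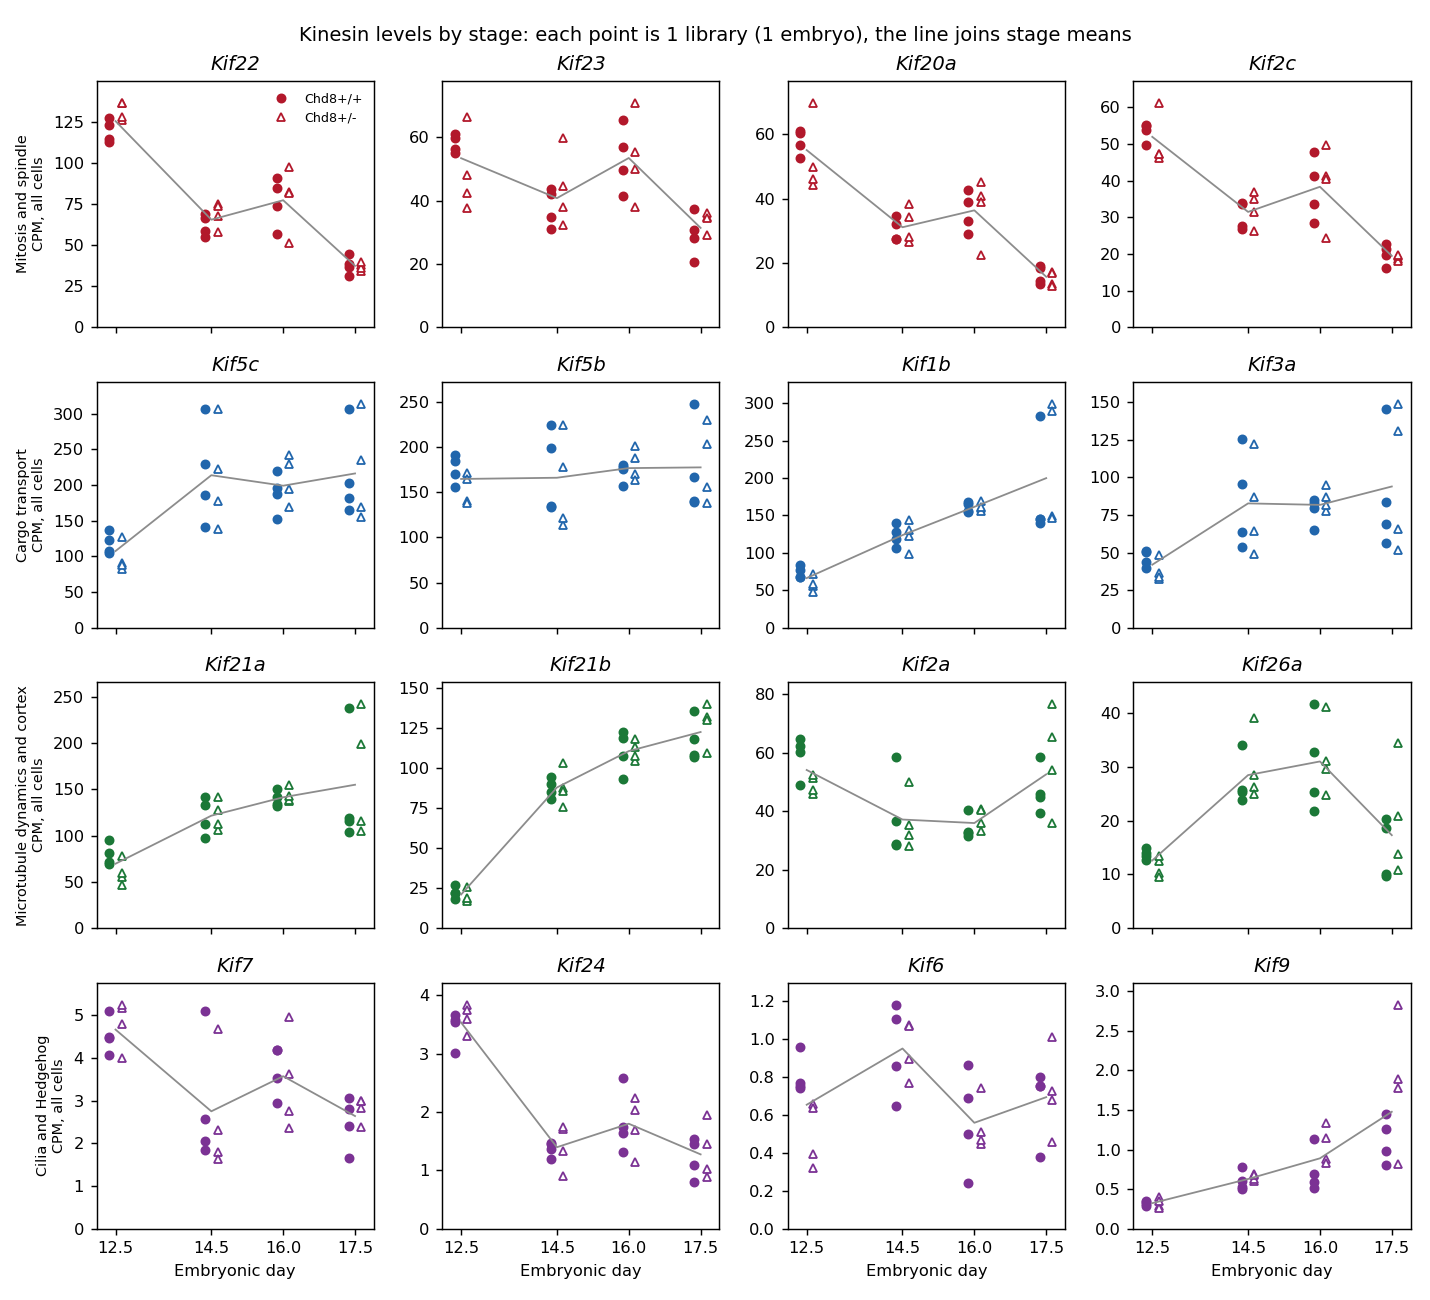
CPM over all cells (vertical axes, 1 panel per gene) of 16 kinesins, 4 per role, by embryonic day; each point is 1 of 32 libraries, filled for WT and open for Chd8 het, and the line joins stage means. Kif22 fell from a median of 126 at E12.5 to 37.1 at E17.5, Kif21b rose from 20.2 to 124, and Kif5b kept overlapping libraries at every stage.

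Kif22, a chromosome-arm motor known as Kid that pushes chromosomes toward the spindle equator, is annotated at chr7:127027729-127042471 and had the most UMIs among spindle kinesins. Its level over all cells ran from 112 to 136 CPM (median 126) at E12.5, from 54.7 to 74.9 (median 66.9) at E14.5, from 51.1 to 97.3 (median 81.6) at E16.0, and from 31.4 to 44.4 (median 37.1) at E17.5. All 8 libraries of E17.5 lay below all 8 of E12.5. The log2 fold was -2.03 ± 0.10 (adjusted p = 4.01e-17, edgeR). By step, the log2 fold was -1.10 ± 0.10 from E12.5 to E14.5, 0.07 ± 0.10 to E16.0 (adjusted p = 0.602) and -1.0 ± 0.10 to E17.5.

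Kif20a, a motor of the central spindle needed for cytokinesis, ran between 44.3 and 69.6 CPM at E12.5 with a median of 54.6, and between 13.0 and 18.9 at E17.5 with a median of 15.5, a log2 fold of -2.08 ± 0.12. Kif2c, which takes microtubules apart at the kinetochore, went from 46.1 to 61.0 (median 51.8) down to 16.2 to 22.7 (median 19.5), a log2 fold of -1.69 ± 0.11. In both genes the stages did not overlap. Kif11, the motor that slides spindle poles apart, fell by 1.35 on the log2 scale and Kif15, which can stand in for it, by 1.34. For Kif11 the E14.5 median of 21.2 CPM lay below that of E16.0 at 35.2.

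Kif23, which bundles the midzone and holds the cytokinetic bridge together with Racgap1, sits at chr9:61915905-61946774 and behaved less steeply. Its libraries ran from 37.7 to 66.6 CPM at E12.5 (median 55.8), from 31.0 to 60.0 at E14.5 (median 40.1), from 38.2 to 70.8 at E16.0 (median 52.7) and from 20.6 to 37.2 at E17.5 (median 32.6). The first and the last stage still stood apart. Its log2 fold of -1.04 ± 0.13 (adjusted p = 1.9e-08) was close to the 2-fold line and was under it when het M2 of E12.5 (-0.97) or WT F1 of E17.5 (-0.98) was left out, and without the M1 and F1 pairs of E17.5 (-0.95). Kif4, the chromosome-bound motor that organises the midzone, at -1.02, was likewise under the line without WT F1 (-0.95), WT M2 (-0.99) or het M2 (-0.96) of E17.5.

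All 11 spindle kinesins passed the adjusted p in all cells, where 12543 of 15887 genes did. They were fitted lower at E17.5, between -2.08 and -0.62 with a median of -1.34. Kif14, a cytokinesis motor, was the member under 2-fold, at -0.62 ± 0.17. With library totals alone Kif23 (-0.77), Kif20b (-0.91), Kif4 (-0.74) and Kif18b (-0.78) were under it too, and in het libraries alone Kif23 (-0.88) and Kif4 (-0.76). Genes of the cycling list (Top2a, Mki67, Cenpf, Ube2c and Hmgb2) moved with them: their summed CPM had a median of 2716 at E12.5, 1207 at E14.5, 1671 at E16.0 and 1074 at E17.5, so that E16.0 was above E14.5 in this list as in Kif22, Kif20a, Kif2c and Kif11. The median share of Top2a-detected cells per library was 54.6% at E12.5, 19.0%, 21% and 10.5% at E17.5. The Top2a-detected cells themselves had median depths of 10066.5, 9741, 7956 and 7978 UMIs per cell. Over all cells, library medians ran from 4093.5 to 10538 UMIs per cell at E12.5 and from 3928 to 5417 at E17.5. A marker is found less often at lower depth, and the part of depth in the share was not tested. What part of the fall follows from fewer cycling cells was not tested.

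Within Top2a-detected cells no spindle kinesin was called lower at E17.5. Of 30 members tested there, 9 rose, where 16% of 13383 genes did, and 0 fell, where 6.58% did. Of the 11 spindle kinesins, 9 were fitted higher at E17.5. Taking both directions together, 8 passed the adjusted p, where 9420 of 13383 genes did. Only Kif14 passed 2-fold, at 1.29 ± 0.15 (adjusted p = 1.39e-08), and it was under 2-fold without the M1 and F1 pairs of E17.5, at 0.92. Without those pairs 7 of the 11 were fitted higher and 4 lower, 5 passed the adjusted p upward and 1 downward, and their median was 0.12 in place of 0.51. The share of all genes that passed the adjusted p without the pairs is not given here. Kif23 ran from 64.9 to 94.0 CPM at E12.5 (median 77.1), from 113 to 156 at E14.5 (median 139), from 144 to 180 at E16.0 (median 158) and from 134 to 193 at E17.5 (median 142), a log2 fold of 0.74 ± 0.07 (adjusted p = 6.57e-11). So in Top2a-detected cells every library of E17.5 held more Kif23 than any of E12.5, whereas over all cells the order was the opposite. Kif22 had medians of 177, 227, 230 and 182 CPM and a log2 fold of -0.24, and Kif2c stood at 0.11 ± 0.08 (adjusted p = 0.233). The cycling list without Top2a, the gene that selects these cells, had a summed median of 3271 CPM at E12.5 and 4102 at E17.5, at the median depths of 10066.5 and 7978 UMIs per cell given above; the part of depth in this was not tested.

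Neurod6-detected cells showed the fall again, at levels below those of Top2a-detected cells. Of 33 members tested there, 7 rose (18.3% of 14576 genes) and 9 fell (11.3%), 8 of the 9 being spindle kinesins and the other Kif24. With library totals alone the split was 11 higher and 6 lower, while the median log2 fold of all genes moved from 0.04 to 0.21. The share of all genes called under that scaling is not given here. All 11 spindle kinesins passed the adjusted p, where 10709 of 14576 genes did, with a median log2 fold of -1.12. Kif22 went from 80.6 to 116 CPM at E12.5 (median 93.0) to between 22.6 and 36.7 at E17.5 (median 27.7), a log2 fold of -1.93. The cycling list had a median summed CPM of 2083 in these cells at E12.5 and 784 at E17.5, and the share of them that also held Top2a was 35.2% and 7.04%. In cells that held Neurod6 and neither other marker, Kif22 had medians of 15, 6.36, 5.36 and 4.38 CPM over the stages, and Kif23 had 5.17, 2.99, 5.93 and 4.21. Of the 9 spindle kinesins that passed the filter in these cells, 6 were called lower at E17.5 (10.7% of genes), from -2.69 in Kif20a and -2.40 in Kif2c to -1.88 in Kif15. Kif23 at -0.55 (adjusted p = 0.0895), Kif20b at -0.02 and Kif18a were not called. The filter can keep a gene that is high at a single stage, so the count of 6 may follow in part from it. Kif18a, a motor that trims kinetochore fibres, was at -1.03 in Neurod6-detected cells and at 0.18 (adjusted p = 0.522) in those without the other markers.

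Eomes-detected cells were intermediate. Of 32 members, 7 rose (12.3% of 13136 genes) and 1, Kif6, fell (7.19% of genes). Under library totals 10 were higher and 0 lower, while the median log2 fold of all genes moved from 0.01 to 0.20. The share of all genes called under that scaling is not given here. No spindle kinesin passed both criteria, and their median log2 fold was -0.14. In cells with Eomes and neither other marker, 7 of the 11 spindle kinesins passed the filter on low counts, and all 7 were called lower at E17.5, where 6.41% of genes were. Among them were Kif22 at -1.32, Kif20a at -1.45, Kif2c at -1.52 and Kif23 at -1.55 (adjusted p = 0.000254), where Kif23 in all Eomes-detected cells had 0.09 ± 0.10 (adjusted p = 0.451). A gene that is high at a single stage can pass that filter, so the count of 7 may follow in part from it. Without WT M1 of E17.5, 5 members were called in Eomes-detected cells, and without the M1 and F1 pairs, 4. Without those pairs 8 of the 11 spindle kinesins passed the adjusted p downward in these cells, all under 2-fold, with a median of -0.56. With all libraries, 8751 of 13136 genes passed the adjusted p in these cells, in either direction. The share of all genes that passed it without the pairs is not given here, so the count of 8 cannot be set against it.

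The same library gives a sum for each marker, so classes were compared within libraries. Neurod6-detected cells held less of 12 members and more of 6 than Top2a-detected cells, of 32 tested, where 13.4% and 12% of 13939 genes were called in these directions. All 11 spindle kinesins were among the lower ones, from -2.24 in Kif18b, which shortens astral microtubules, to -1.93 in Kif20b, a midbody motor, with a median of -2.05. Each of them was lower in Neurod6-detected cells in 32 of 32 libraries. Since Top2a is itself a gene of dividing cells, this direction goes with the choice of the marker, and the size depends on how the groups are drawn. Cells shared by both groups enter both sums. Between cells with only 1 of the markers, Kif23 differed by -4.73, Kif22 by -4.78 and Kif11 by -5.37 on the log2 scale, against -2.07, -2.04 and -2.13 in the overlapping groups. Cells with Neurod6 alone hold no Top2a UMI by definition, so the larger values follow in part from that choice.

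**Figure D2:**
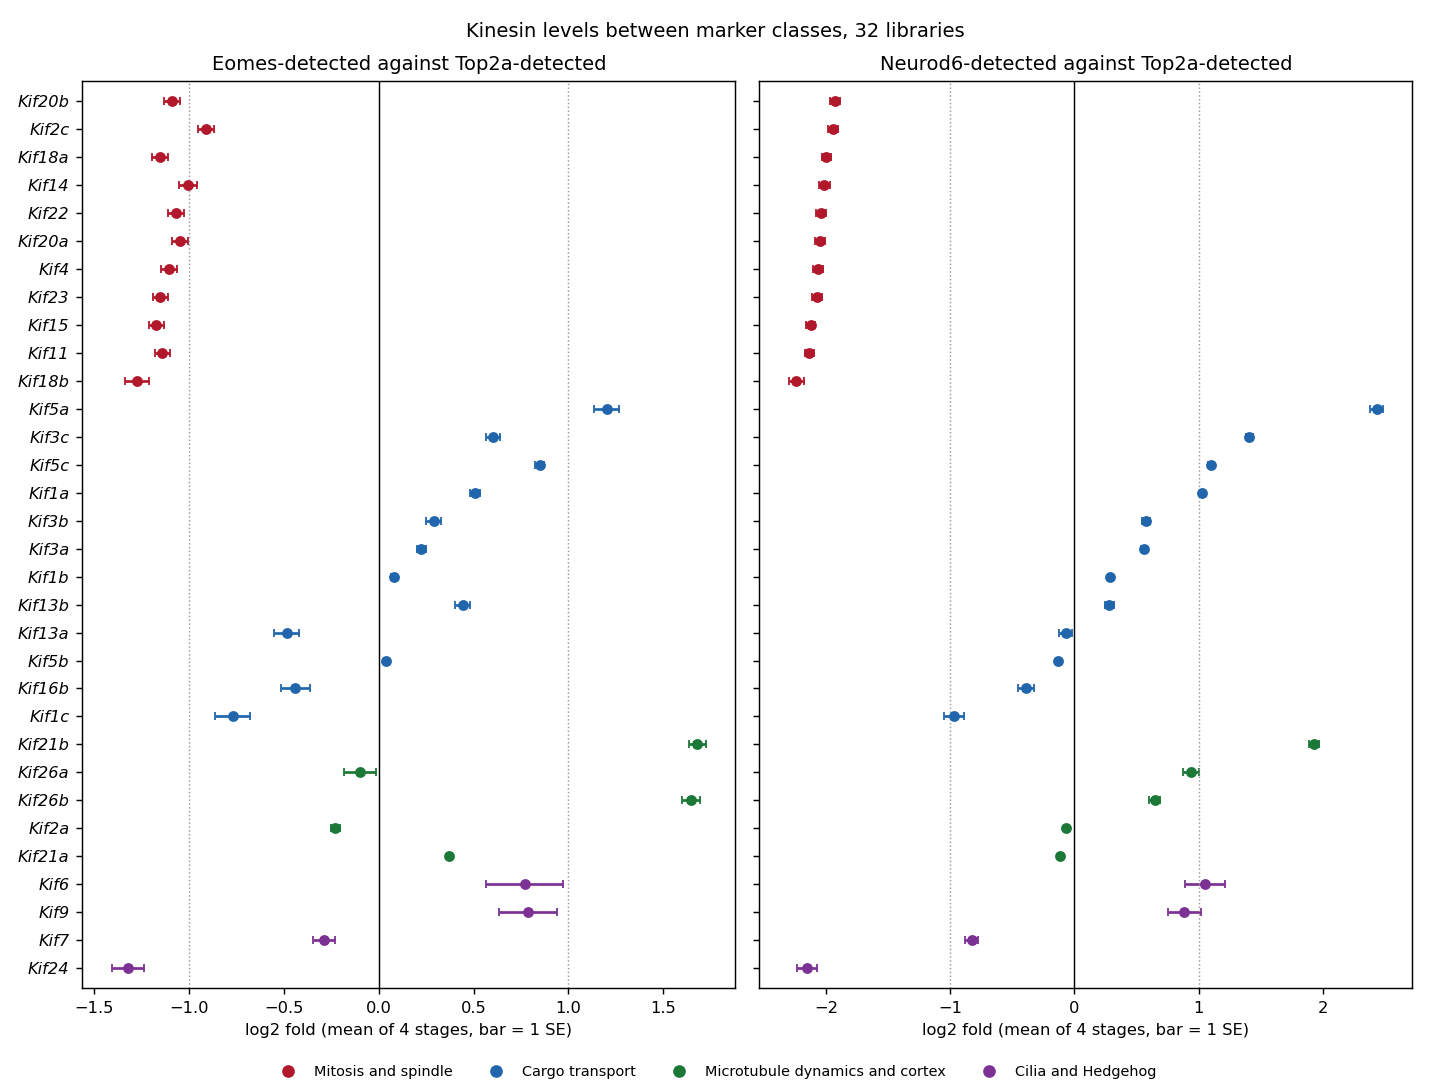
Log2 fold of 32 kinesins (rows, ordered by role) between marker groups of cells, averaged over the 4 stages, for Eomes-detected and for Neurod6-detected against Top2a-detected cells; bars are 1 SE and dotted lines mark a 2-fold difference. The 11 spindle kinesins lie left of the 2-fold line in Neurod6-detected cells, with Kif24 beside them, and Kif5a (2.43) and Kif21b (1.93) lie farthest right.

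Eomes-detected cells held less of 11 members and more of 3 than Top2a-detected cells, against 8.64% and 4.59% of genes. The lower ones were 10 spindle kinesins and Kif24. Kif2c, at -0.91, was the spindle kinesin under 2-fold, and Kif14 was under it without het M1 of E14.5 or WT M2 of E16.0, at -0.996 and -0.999. Kif23 medians in Eomes-detected cells were 51.9, 47.4, 70.9 and 55.4 CPM over the 4 stages, between those of Top2a-detected cells and the 39.7, 25.1, 36.4 and 24.7 of Neurod6-detected cells.

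For the spindle kinesins the gap between Top2a-detected and Neurod6-detected cells widened with age. The contrast of Neurod6-detected with Top2a-detected cells was more negative at E17.5 than at E12.5 for 13 members and more positive for 0, where 9.97% and 4.92% of genes passed. The 13 were all 11 spindle kinesins, from -2.08 in Kif14 to -1.33 in Kif18a, with Kif24 (-1.39 ± 0.23) and Kif21b (-1.24 ± 0.13), whose contrast was positive and so narrowed. For Kif23 the contrast was -1.04 at E12.5, -2.44 at E14.5, -2.16 at E16.0 and -2.65 at E17.5, and for Kif22 it was -0.95, -2.38, -2.16 and -2.66. The share of Neurod6-detected cells that also held Top2a changed most over the same step, from 35.2% at E12.5 to 11.9% at E14.5, and its part in the widening was not tested directly. Between cells with only 1 marker, 9 of the 11 spindle kinesins passed both criteria, where 13.3% of genes were more negative. They ran from -3.68 ± 0.67 in Kif14 to -1.30 in Kif23, whereas Kif18a at -0.16 (adjusted p = 0.6) and Kif20b at -0.64 were no longer called. Kif14 and Kif18b (-2.73 ± 0.62) did not pass the filter within cells of Neurod6 alone. The filter of this fit can keep a gene that is high in a single group, so the count of 9 may follow in part from it.

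**Figure D3:**
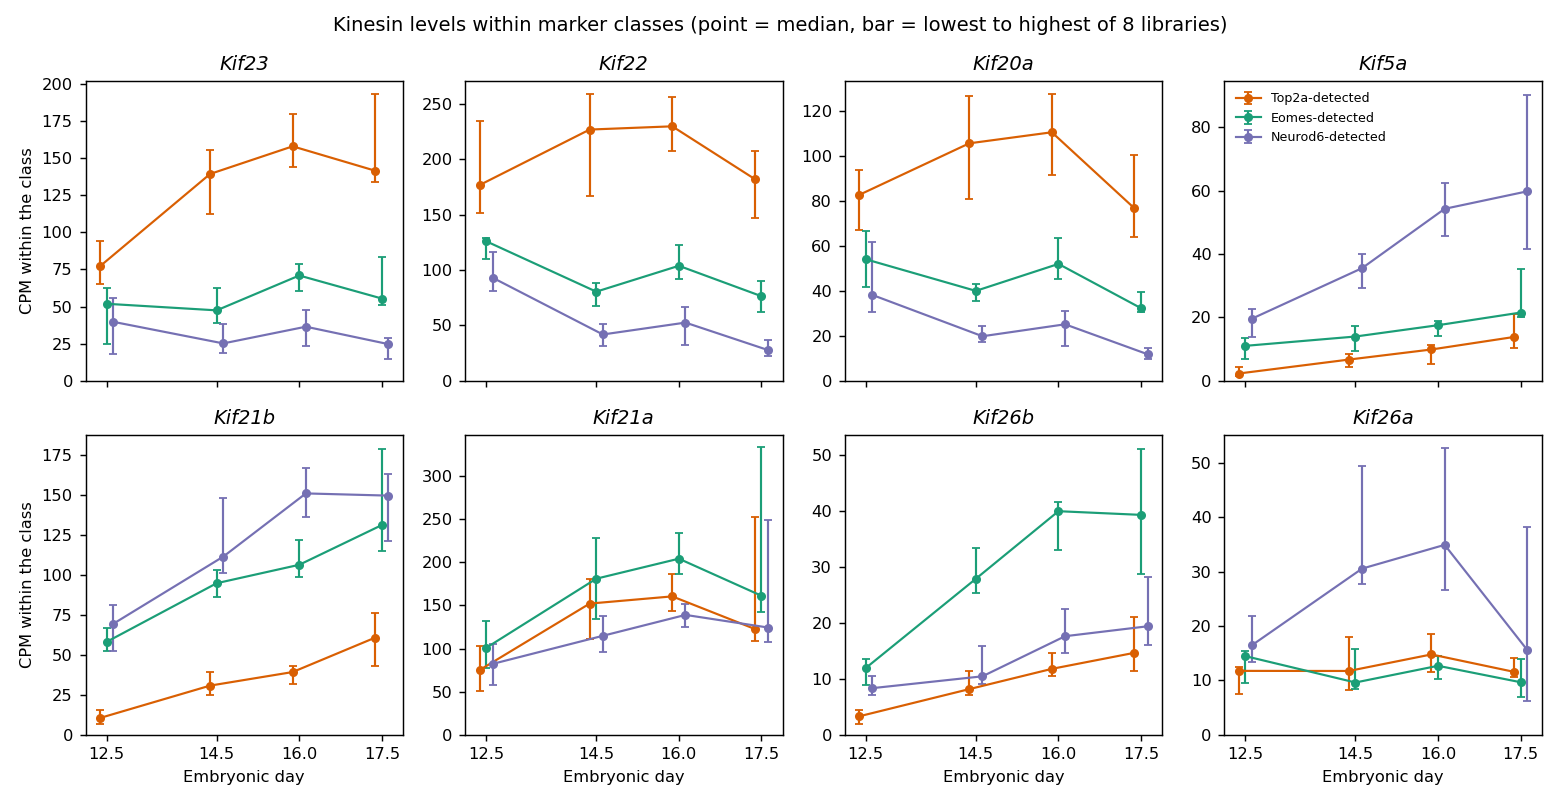
CPM of 8 kinesins (panels) by embryonic day in Top2a-, Eomes- and Neurod6-detected cells; points are medians of 8 libraries and bars run from the lowest to the highest library. By median, Kif23, Kif22 and Kif20a are highest in Top2a-detected cells, Kif5a and Kif21b in Neurod6-detected cells, Kif21a and Kif26b in Eomes-detected cells, and Kif26a in Neurod6-detected cells at each stage. The bars of Kif26a at E17.5 overlap between all groups.

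Cargo carriers came next. Of 13 over all cells, 6 rose (22.9% of all genes) and 0 fell (14.6%), and their median log2 fold of 0.88 compares with 0.07 for all genes tested. Kif5a, at chr10:127225696-127263348, is the neuron-specific heavy chain of conventional kinesin, which carries neurofilaments, mitochondria and membrane vesicles down axons. It ran from 4.86 to 8.14 CPM at E12.5 (median 6.06), from 22.3 to 33.4 at E14.5 (median 27.9), from 30.4 to 46.8 at E16.0 (median 38.7) and from 36.7 to 80.2 at E17.5 (median 52.6). No library of E12.5 reached a library of any later stage. The log2 fold over all cells was 2.88 ± 0.15, and the step to E14.5 made up 2.01 ± 0.14 of it. The 6 excitatory neuron markers went over the same step from a summed median of 660 to 2581 CPM, and the median share of Neurod6-detected cells went from 26.0% to 72.8%.

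Within Neurod6-detected cells Kif5a also rose, from 13.8 to 22.5 CPM at E12.5 (median 19.6) to between 41.4 and 90.1 at E17.5 (median 59.7), a log2 fold of 1.59. In cells with Neurod6 alone the medians were 31.3, 46.9, 73.5 and 74.0 CPM. In Eomes-detected cells the log2 fold was 1.05, and it was under 2-fold without het M1 of E12.5 (0.98), WT M1 of E17.5 (0.96) or het F1 of E17.5 (0.96), and without the M1 and F1 pairs (0.78). In Top2a-detected cells it was 2.29 ± 0.19, where medians were 2.27, 6.67, 9.85 and 13.8 CPM. Of those cells, 18.4% had a Neurod6 UMI at E12.5 and 53.6% at E17.5, and the part of this in the rise was not tested. Top2a-detected cells without the other markers had 1.5, 2.56, 5.12 and 8.30 CPM, and vessel, blood and immune cells had 2.23 (Poisson 95% interval 1.54 to 3.14, counting error only).

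Kif5a was the member with the largest of the 32 contrasts between the overlapping Neurod6- and Top2a-detected groups, 2.43 ± 0.05 higher in Neurod6-detected cells and higher in 32 of 32 libraries. Kif5c, its paralog that is also enriched in neurons, was 1.1 ± 0.02 higher there, again in 32 of 32 libraries. Kif5b, the ubiquitous heavy chain, was -0.14 ± 0.01 and lower in 23 of 32. Between cells with only 1 marker the order was another, with Kif21b at 4.31, Kif5a at 3.93 and Kif18b at -5.47.

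Kif5c and Kif5b had the most UMIs among carriers. Kif5c, at chr2:49619298-49774778, went from between 81.8 and 137 CPM (median 106) at E12.5 to between 139 and 306 (median 204) at E14.5, 152 to 242 (median 195) at E16.0 and 156 to 313 (median 192) at E17.5. E12.5 stood below the later stages, which overlapped each other. Its log2 fold of 0.73 ± 0.16 (adjusted p = 0.000144) was under 2-fold. It was 1.02 with library totals and 0.43 (adjusted p = 0.0268) without the M1 and F1 pairs of E17.5, which held 203 to 313 CPM against 156 to 182 in the other 4 libraries. Within Neurod6-detected cells the log2 fold was 0.16 and within Top2a-detected cells 0.11 (adjusted p = 0.503). In Top2a-detected cells without the other markers it was -0.48 (adjusted p = 0.000699), and in all Top2a-detected cells without the M1 and F1 pairs of E17.5 it was -0.31 (adjusted p = 0.0489), so its direction there depended on the cells and libraries taken. Kif5b ran from 138 to 191 CPM at E12.5 (median 167) and from 138 to 248 at E17.5 (median 161), a log2 fold of -0.17 ± 0.13 (adjusted p = 0.212) that was -0.35 (adjusted p = 0.0232) without those pairs. In vessel, blood and immune cells Kif5b stood at 236 CPM, Kif5c at 10.3 and Kif1a at 3.72.

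Set side by side as shares of the UMIs of all 3 heavy chains, which are counts of 3′ ends and not of protein, Kif5b gave 59.4 ± 2.4% (SD, n = 8) of the total at E12.5 and 39.7 ± 2.8% at E17.5 over all cells. In Top2a-detected cells its share was 66.0 ± 3.3% and 63.9 ± 2.6%, and in Neurod6-detected cells 45.8 ± 2.2% and 36.4 ± 2.4%. Kif5a gave 4.71 ± 0.81% of the heavy chain UMIs of Neurod6-detected cells at E12.5 and 12.9 ± 2.3% at E17.5, against 0.932 ± 0.308% and 4.35 ± 0.74% in Top2a-detected cells. Kif5c made up about the same part of the total of Neurod6-detected cells at both ages, 49.5 ± 1.9% and 50.6 ± 2.4%.

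**Figure D4:**
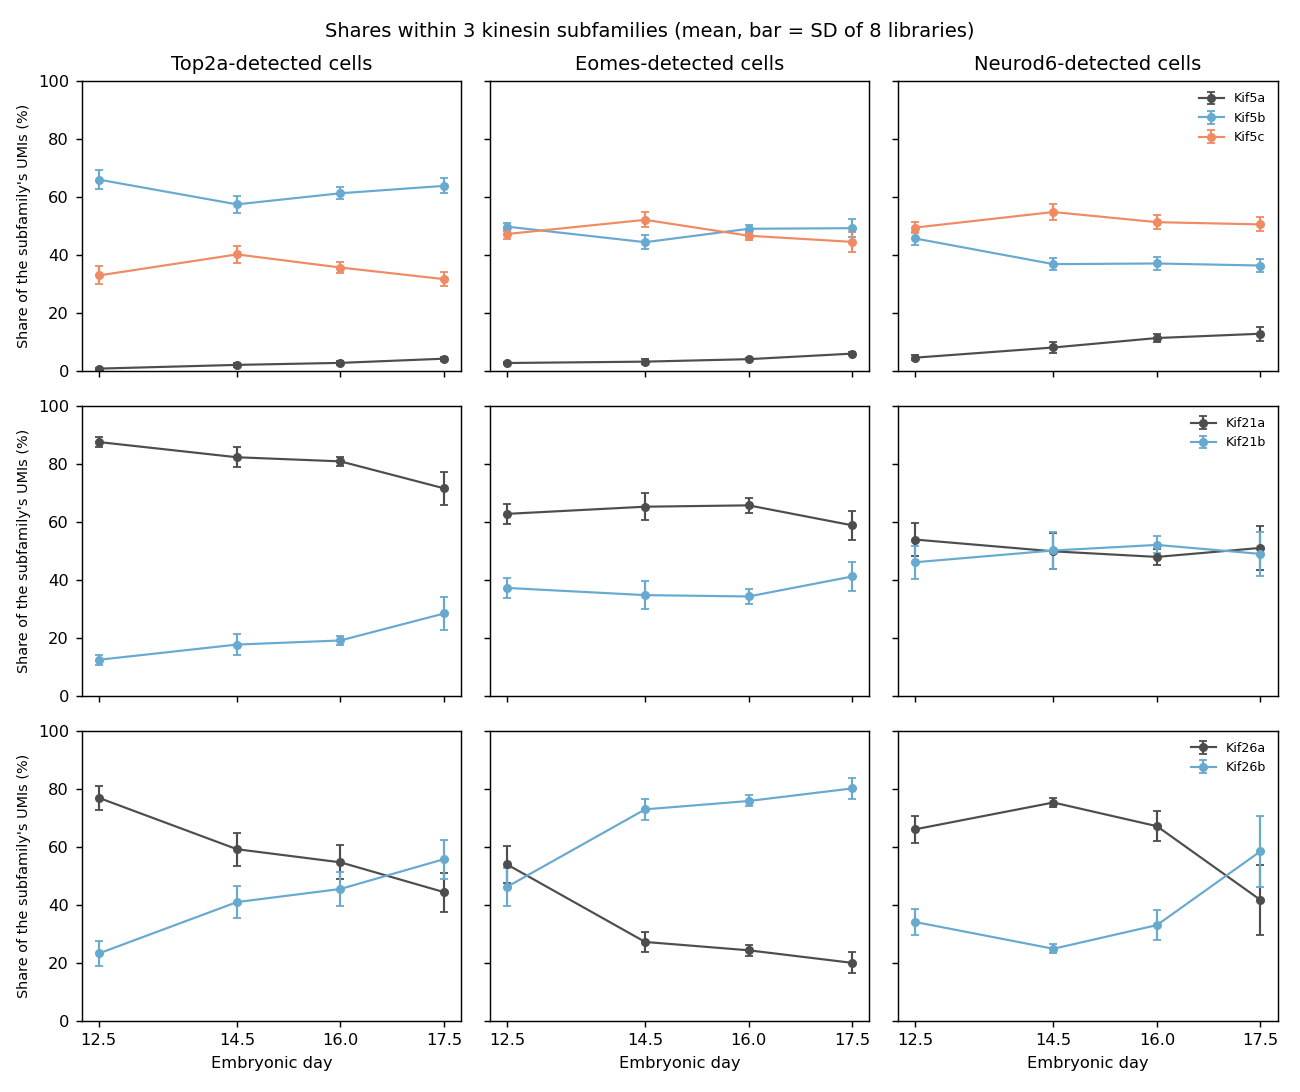
Share of each paralog (vertical axis, percent of the UMIs of its subfamily) in the Kif5, Kif21 and Kif26 subfamilies by embryonic day and marker group of cells; points are means and bars SD of 8 libraries. Kif5b keeps more than 57% of its subfamily in Top2a-detected cells at each stage, Kif21b goes from 12.5% to 28.4% there, and Kif26b reaches 80.0% in Eomes-detected cells at E17.5.

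Kif1a, the fast carrier of synaptic vesicle precursors, and Kif1b, whose forms carry mitochondria and synaptic vesicle precursors, also rose. Kif1a ran from 17.3 to 28.3 CPM at E12.5 (median 21.1) and from 62.2 to 134 at E17.5 (median 80.3), a log2 fold of 1.84 ± 0.14. It was 1.03 ± 0.02 higher in Neurod6-detected than in Top2a-detected cells, a value at the 2-fold line that was 0.95 when doublets were kept. Kif1b, at chr4:149176319-149307693, ran from 48.2 to 83.6 CPM (median 68.1), 98.8 to 144 (median 125), 155 to 170 (median 161) and 140 to 299 (median 148). Its log2 fold was 1.31 ± 0.13 in all cells and 1.12 in each of the Top2a-, Eomes- and Neurod6-detected cells. Without the M1 and F1 pairs of E17.5 these were 0.92, 0.79, 0.77 and 0.73, under 2-fold, and without WT M1 alone they were 0.98 in Top2a-detected and 0.97 in Eomes-detected cells. Kif1b was 0.29 higher in Neurod6-detected than in Top2a-detected cells, in 32 of 32 libraries.

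Heterotrimeric kinesin-2, built from Kif3a with Kif3b or Kif3c and the adaptor Kifap3, moves cargo in cilia and axons. Kif3c rose most in it, from 8.98 to 14.2 CPM at E12.5 (median 11.4) to between 50.6 and 67 at E17.5 (median 58.3), a log2 fold of 2.06 ± 0.10. It was 1.41 ± 0.03 higher in Neurod6-detected than in Top2a-detected cells. Kif3b rose by 1.40 in all cells (0.96 without the M1 and F1 pairs) from a median of 5.44 to 13.5 CPM. Kif3a, the common subunit, had medians of 41.7, 75.8, 82.3 and 76.3 CPM and a log2 fold of 0.88 ± 0.20 (adjusted p = 0.00022), under 2-fold, and 1.17 with library totals. Its E17.5 level was 83.7 to 149 CPM in the M1 and F1 pairs and 51.7 to 68.9 in the other 4 libraries, and without those pairs the log2 fold was 0.32 (adjusted p = 0.12), at -0.058 in Eomes-detected and -0.098 in Neurod6-detected cells against 0.52 and 0.45 with them. Kif3c made up 19.8 ± 2.3% of the 3 genes' UMIs at E12.5 and 36.6 ± 8.5% at E17.5.

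Among the remaining carriers, Kif13b, a motor for membrane cargo that binds phosphoinositides, rose by 1.95 ± 0.18 in all cells from a median of 2.47 to 8.46 CPM, with log2 folds of 1.85, 1.68 and 1.80 in the 3 groups. Its difference between Neurod6-detected and Top2a-detected cells was 0.28. Kif13a, its paralog, which moves endosomes, had 0.41 ± 0.10 over stages and -0.07 (adjusted p = 0.22) between those classes. Kif1c, a motor of vesicles and of RNA, was -0.97 ± 0.08 in Neurod6-detected cells and stood at 27.6 CPM in vessel, blood and immune cells, against library medians of 1.18 to 3.95 in the marker groups. Kif16b, an early endosome motor, at -0.05, Kif1c at -0.22 and Kif17, a dendritic motor, at 0.57 (adjusted p = 0.089) did not pass in the contrast of stages. Without the M1 and F1 pairs of E17.5, Kif16b was at -0.50 (adjusted p = 0.00158). Kif17 rested on 1 to 16 UMIs per library.

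Of the 5 regulators of microtubules, 2 rose over all cells (22.9% of all genes) and 0 fell (14.6%), with a median log2 fold of 0.88 against 0.07 for all genes. Kif21b, at chr1:136131389-136177998, slows and pauses microtubule growth in neurons. It ran from 16.7 to 26.9 CPM at E12.5 (median 20.2), from 75.5 to 103 at E14.5 (median 87.0), from 93.6 to 122 at E16.0 (median 111) and from 107 to 140 at E17.5 (median 124), a log2 fold of 2.26 ± 0.09. The first step gave 1.91 ± 0.09, and the later steps 0.17 ± 0.08 (adjusted p = 0.123) and 0.19 ± 0.08 (adjusted p = 0.0723). Kif21b was 1.68 ± 0.04 higher in Eomes-detected and 1.93 ± 0.04 higher in Neurod6-detected cells than in Top2a-detected cells, in 32 of 32 libraries. In cells with 1 marker alone the order was steeper, with a Neurod6 against Top2a log2 fold of 4.31 and a Neurod6 against Eomes one of 2.53.

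Unlike the spindle kinesins, Kif21b came closer between classes with age, since it rose by 2.29 ± 0.12 in Top2a-detected and by 0.92 in Neurod6-detected cells. Top2a-detected cells had medians of 10.5, 30.8, 39.3 and 60.9 CPM, Neurod6-detected cells 69.5, 112, 151 and 150. The contrast between them went from 2.53 at E12.5 to 1.29 at E17.5. Top2a-detected cells with neither other marker had 3.09, 5.79, 6.35 and 15.1 CPM, a lower level at each stage.

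Kif21a, the paralog that anchors growing microtubule ends at the cortex, at chr15:90933276-91049948, had more UMIs than Kif21b. It ran from 47.0 to 95.2 CPM (median 70.6), 97.2 to 142 (median 120), 132 to 154 (median 140) and 104 to 242 (median 118). The log2 fold of 0.88 ± 0.15 (adjusted p = 3.29e-06) was under 2-fold. It was 1.16 with library totals and 0.50 without the M1 and F1 pairs of E17.5. Its maximum lay in the intermediate group: Kif21a was 0.37 ± 0.02 higher in Eomes-detected than in Top2a-detected cells and 0.49 lower, at -0.49 ± 0.01, in Neurod6-detected than in Eomes-detected cells, each in 32 of 32 libraries. Medians in Eomes-detected cells were 101, 181, 204 and 161 CPM. Kif21b gave 12.5 ± 1.7% of the pair's UMIs in Top2a-detected cells at E12.5 and 28.4 ± 5.7% at E17.5, and 46.1 ± 5.8% and 49.0 ± 7.5% in Neurod6-detected cells.

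The Kif26 pair, unusual kinesins that bind microtubules without stepping along them, split by class. Kif26b, at chr1:178529125-178939200, rose by 1.90 ± 0.11 over all cells, from between 2.40 and 4.69 CPM (median 3.82) to between 13.8 and 24.9 (median 16.7), with each of the 3 steps passing the adjusted p. It was 1.65 ± 0.05 higher in Eomes-detected than in Top2a-detected cells in 32 of 32 libraries. From Eomes-detected to Neurod6-detected cells it was lower in 32 of 32 libraries, at -1.0 ± 0.04, a value on the 2-fold line. Medians in Eomes-detected cells were 11.9, 27.9, 39.9 and 39.3 CPM, against 8.33, 10.4, 17.6 and 19.4 in Neurod6-detected cells. Cells with Eomes alone had 5.70, 6.46, 15.3 and 24.5, and cells with Neurod6 alone 2.43, 1.41, 3.18 and 11.9. The rise of Kif26b in Neurod6-detected cells, 1.02, was under 2-fold without any 1 of 6 libraries (WT F2, WT M2, het F1 or het M2 of E12.5, WT F1 or het M1 of E17.5), at 0.939 to 0.999, and at 0.91 without the M1 and F1 pairs.

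Kif26a, at chr12:112146208-112181747, was instead highest by median in Neurod6-detected cells, and higher there than in Top2a-detected cells in 28 of 32 libraries. Over all cells it had medians of 13.1, 25.9, 30.3 and 16.2 CPM and passed the adjusted p upward from E12.5 to E14.5 (1.02 ± 0.18) and downward from E16.0 to E17.5 (-0.82 ± 0.18, adjusted p = 0.000585). The M1 and F1 pairs of E17.5 held 18.6 to 34.5 CPM and the other 4 libraries 9.63 to 13.8. With all libraries the log2 fold from E12.5 to E17.5 was 0.16 (adjusted p = 0.418), and without those pairs it was -0.42 (adjusted p = 0.0171) and the last step -1.41. In Neurod6-detected cells medians were 16.5, 30.5, 34.9 and 15.6 CPM, and the last step was -1.16 ± 0.24 (adjusted p = 0.000816), or -2.14 without the pairs. There the fold from E12.5 to E17.5 was -0.23 (adjusted p = 0.42) with them and -1.20 (adjusted p = 1.6e-05) without. The E17.5 libraries spread from 6.24 to 38.2 CPM there, and from 10.6 to 14.2 in Top2a-detected cells. In Eomes-detected cells its medians were 14.46, 9.61, 12.7 and 9.66 CPM, the first of them close to the 16.5 of Neurod6-detected cells. Kif26a was 1.04 ± 0.06 higher in Neurod6-detected than in Eomes-detected cells, in 28 of 32 libraries, a difference that was not called between cells with 1 marker alone (0.62). Kif26b gave 46.2 ± 6.4%, 72.8 ± 3.5%, 75.7 ± 1.9% and 80.0 ± 3.6% of the pair's UMIs over the stages in Eomes-detected cells, and 34.0 ± 4.6%, 24.8 ± 1.5%, 33.0 ± 5.1% and 58.4 ± 12.2% in Neurod6-detected cells. Vessel, blood and immune cells held Kif26a at 43.1 CPM, and the 15 markers of such cells had summed medians of 89.4, 68.4, 220 and 294 CPM over the stages; their part in the levels of Kif26a was not tested.

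Kif2a, the relative of Kif2c that takes microtubules apart in axons and in spindles, had medians of 51.8, 33.6, 34.6 and 50.1 CPM over all cells and a log2 fold of -0.33 ± 0.14 (adjusted p = 0.0344), under 2-fold, with overlapping libraries, and of -0.53 without the M1 and F1 pairs of E17.5. It passed the adjusted p downward to E14.5 (-0.70 ± 0.14) and upward to E17.5 (0.58 ± 0.14). Between Neurod6-detected and Top2a-detected cells it differed by -0.07 ± 0.02. Kif2c gave 49.1 ± 4.3% of the UMIs of both genes at E12.5 and 27.8 ± 5.5% at E17.5 over all cells.

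Neurod6-detected cells against Eomes-detected cells gave 2 members higher (6.87% of genes), Kif5a at 1.23 ± 0.04 and Kif26a, and 4 lower (1.73%), Kif2c at -1.03, Kif14 at -1.01, Kif20a and Kif26b at -1.0. These 4 lay on the 2-fold line, and the count of 6 became 2 without het F1 of E17.5 and 3 without any 1 of 23 other libraries. With disjoint groups it was 15. The counts of members called in the other class contrasts stayed within 1.5 times over the alternatives run.

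Cilia kinesins had few UMIs. Kif7, the scaffold of Hedgehog signalling at the cilium tip, ran from 4.0 to 5.23 CPM at E12.5 (median 4.64) and from 1.65 to 3.07 at E17.5 (median 2.81), a log2 fold of -1.10 ± 0.21 over all cells that was -0.82 with library totals and -0.88 without the M1 and F1 pairs. It was -0.83 ± 0.05 in Neurod6-detected against Top2a-detected cells, lower in 32 of 32 libraries. Kif24, which holds back cilium assembly in cycling cells, followed the spindle kinesins: medians were 3.59, 1.41, 1.72 and 1.27 CPM, the log2 fold was -1.76 ± 0.17 over all cells and -0.10 in Top2a-detected cells, and it was -2.15 ± 0.08 in Neurod6-detected against Top2a-detected cells.

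Kif9, a motor linked to motile cilia, rose by 1.85 ± 0.21 from between 0.266 and 0.396 CPM (median 0.328) to between 0.803 and 2.83 (median 1.36), without overlap. Kif6, also tied to motile cilia, had medians of 0.700, 0.985, 0.507 and 0.738 CPM and a log2 fold of -0.18 ± 0.21. Its fall in Eomes-detected cells, -1.11 ± 0.42 (adjusted p = 0.0222), rested on 189 UMIs in all and was not called without any 1 of 4 libraries (het F2 of E12.5, WT M1, WT M2 or het F2 of E17.5), at -0.98 to -0.91, nor with library totals (-0.93). Its call in Neurod6-detected against Top2a-detected cells, 1.05 ± 0.16, was under 2-fold without WT M1 of E12.5 (0.997) or WT F2 of E17.5 (0.982), and 1.00 without het F2 of E17.5. Kif27 at -0.40 and Kif19a at 0.07 did not pass between stages. Without the M1 and F1 pairs of E17.5, Kif6 was at -0.42, Kif27 at -0.83 and Kif19a at 0.36, and these did not pass either.

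Partners of the kinesins were read from a list of 33 genes of light chains, adaptors, dynein subunits, minus-end kinesins and spindle regulators. Over all cells 7 rose (22.9% of all genes) and 10 fell (14.6%) between E12.5 and E17.5, so that the share that rose lay near that of all genes. The fallen genes were regulators of mitosis, such as the kinases Aurka (-2.24 ± 0.12), Plk1 (-2.02) and Aurkb (-1.98), the Kif23 partner Racgap1 (-1.51), the midzone bundler Prc1 (-1.40), and the minus-end motor Kifc1 (-1.49). The risen ones were Dync1i1, a neuronal dynein intermediate chain (5.76 ± 0.40), the minus-end motors Kifc2 (2.44 ± 0.15) and Kifc3 (1.95 ± 0.16), the mitochondrial adaptors Trak2 (1.38) and Trak1 (1.26), the scaffold Mapk8ip3 (1.14) and the kinesin-2 adaptor Kifap3 (1.07 ± 0.15). Light chains of conventional kinesin were under 2-fold between classes: Klc1 was 0.78 and Klc2 0.91 higher in Neurod6-detected than in Top2a-detected cells. In that contrast 2 partners were higher (12% of all genes), Dync1i1 (2.16) and Kifc2 (1.42), and 11 lower (13.4%).

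The study also asked how gene expression differs with 1 working copy of Chd8. With the matched pair as a block, Kif13a, Kif13b and Kif22 were called at E12.5, as given below. Without it, no member was called at an adjusted p under 0.05 by edgeR's quasi-likelihood test, or by DESeq2, in the 9 genotype tests. These were the mean of the 4 stages over all cells (0.321% of genes called), E12.5 (0.277%), E14.5 (0%), E16.0 (0%), E17.5 (0%), the interaction of genotype and stage (0%), and the mean in Top2a-detected (0.635%), Eomes-detected (0.305%) and Neurod6-detected cells (0.22%). At an unadjusted p under 0.05, the members numbered 1 for the mean (6.72% of all genes tested), 2 at E12.5 (15.2%), 0 at E14.5 (1.74%), 0 at E16.0 (1.45%), 2 at E17.5 (4.35%), 1 for the interaction (4.82%), and 1, 2 and 1 in the 3 groups of cells (11.5%, 8.96% and 5.70%). In simulated data the E12.5 test found 60% of 2-fold and 36% of 1.5-fold differences, so part of the differences of these sizes at E12.5 could have been missed. The changed genes were drawn at random from all genes that passed the filter, and no stage differences were simulated. Rates for the members, many with more UMIs and some with few, were not simulated and can differ.

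**Figure D5:**
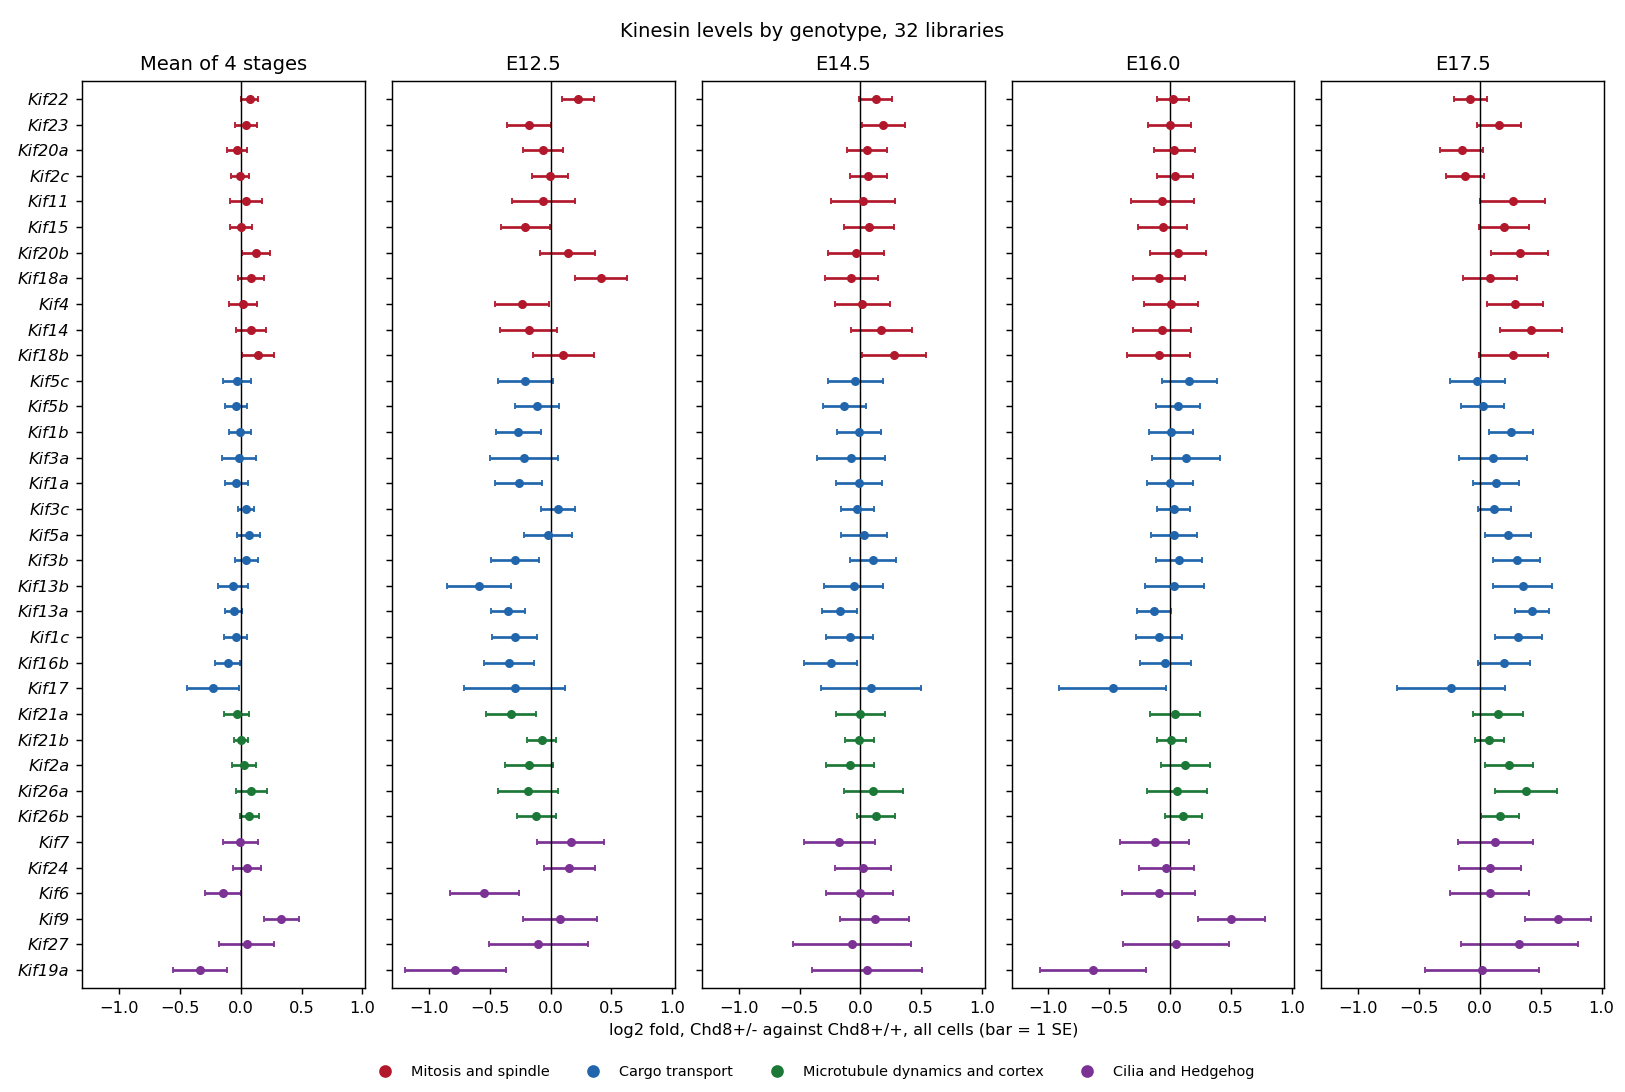
Log2 fold of Chd8 het over WT for the 35 kinesins (rows, by role) over all cells, as the mean of 4 stages with 1 SE and as each single stage. No member passed an adjusted p under 0.05 in these fits, which do not use the matched pair as a block. Kif9, at 0.34 ± 0.14 with an adjusted p of 0.632, has the lowest unadjusted p of the means.

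Kif13a and Kif13b came nearest at single stages. At E12.5, Kif13a stood at 4.33, 4.51, 4.60 and 4.07 CPM in WT embryos M1, M2, F1 and F2 and at 2.88, 3.76, 2.66 and 3.61 in the het embryos of the same pairs. Each het was below its WT partner and below every WT. The log2 fold was -0.35 ± 0.14 (unadjusted p = 0.0187, adjusted p = 0.222, edgeR). At E17.5 the order turned: WT embryos had 6.49, 4.96, 4.41 and 4.73 CPM and het embryos 7.76, 6.14, 7.76 and 7.07, higher in 4 of 4 pairs, although WT M1 lay above het M2. That log2 fold was 0.43 ± 0.14 (adjusted p = 0.907), and edgeR's test of the interaction over stages gave an unadjusted p of 0.00355 (adjusted p = 0.982).

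Kif13b averaged 2.98 ± 0.33 CPM (SD, n = 4) in WT and 1.84 ± 0.47 in het embryos at E12.5, lower in 4 of 4 pairs, with a log2 fold of -0.59 ± 0.26 (adjusted p = 0.270). With the matched pair as a block, 13.3% of 15887 genes were called at E12.5, and 3 of the 35 members: Kif13b at -0.61 (adjusted p = 0.0207), Kif13a at -0.35 (adjusted p = 0.0446) and Kif22 at 0.23 (adjusted p = 0.0452). Without the M1 and F1 pairs of E17.5, Kif13b alone was called at E12.5, where 2.89% of genes were. Kif22 stood at 114, 127, 123 and 112 CPM in WT and 126, 136, 136 and 128 in het embryos, higher in 4 of 4 pairs with overlapping groups. At this stage the het embryos M1, F1 and F2 were sequenced less deeply, at medians of 6003, 4093.5 and 5938.5 UMIs per cell against 8597 to 10489.5 in WT. These are the 3 het libraries with the lowest Kif13a. The 3 pairs they belong to share a label code prefix, and the M2 pair carries another. The parts of depth and of this code in these differences were not tested.

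Over the family, 27 of 35 members were fitted lower in het at E12.5, 12 of 13 cargo kinesins among them, with a median log2 fold of -0.18 against -0.03 for all genes. The latter was -0.11 when libraries were scaled by their totals alone. By pair, 28 members were lower in het in M1, 27 in F1 and 26 in F2, whereas 23 were higher in M2, whose het library was sequenced as deeply as the WT ones, at a median of 10538 UMIs per cell. The label codes of the M1, F1 and F2 embryos share a prefix, and those of M2 carry another. The parts of depth and of what the codes stand for were not tested. At E17.5, 30 of 35 were fitted higher, with a median of 0.17 against 0.01. With single libraries of E17.5 left out, the median of members ran from 0.096 (without het M1) to 0.37 (without WT M1). In the F1 pair 32 of 35 members were higher in het, against 20 in M1, 21 in M2 and 21 in F2, and without the M1 and F1 pairs 21 of 34 were fitted higher, with a median of 0.06. Members share their libraries, so these counts are no test, and the share of all genes fitted in each direction was not counted beside them. Kif9 was higher in het in 12 of 16 pairs, at 12 to 43 UMIs per library at E17.5.

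The 4 libraries of the M1 and F1 pairs at E17.5 differed from the other 4 of that stage in several carriers and regulators. Their label codes also lack a prefix of the kind that the codes of the other 4 carry. What part this has in the differences was not tested. Kif1b stood at 283 CPM in WT M1, 299 in het M1 and 289 in het F1, while WT F1 had 146 and the M2 and F2 pairs 140 to 149. Kif21a showed the same 3 libraries apart, at 238, 199 and 242 CPM against 104 to 119 in the others. Kif5a ran from 56.2 to 80.2 in these pairs and from 36.7 to 49.1 in the others, and Kif1a from 86.7 to 134 and from 62.2 to 74.0. Kif20a went the other way, at 13.0 to 14.3 against 16.7 to 18.9. The summed early response and heat shock list (7 genes) was 597 to 1004 CPM in these 4 libraries and 296 to 341 in the other 4, and between 398 and 1054 at the earlier stages. Without the 2 pairs, 17 members were called between E12.5 and E17.5 over all cells, 7 higher (20.2% of genes in the same fit) and 10 lower (13.4%). In Top2a-detected cells 5 were higher (14%) and 0 lower (7.1%), in Eomes-detected cells 3 higher (10.7%) and 1 lower (7.64%), and in Neurod6-detected cells 4 higher (15%) and 11 lower (10.1%).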

How the data were processed

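The authors deposited UMI counts per gene and barcode for each of 32 libraries, whole numbers with no normalisation. Per the submitters' processing notes, STAR 2.7.9a, STARsolo, Cell Ranger and build mm10 were used. Not given in the sources used here are the annotation, the strand of counting and the calling of cells.

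Of 145082 barcodes, 143697 passed filters of 1000 UMIs and 500 genes as minima and 10% mitochondrial UMIs as maximum. Doublets were scored by simulated pairs (0.5 per cell, 2000 variable genes, 30 principal components, 30 neighbours), and 5471 cells were removed at an assumed 0.8% per 1000 cells. Free RNA was not modelled. Counts were summed per library over all cells and over the cells with at least 1 UMI of Top2a, Eomes or Neurod6. CPM are these sums per 1000000 UMIs.

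Sums were tested with edgeR 4.0.16 (quasi-likelihood, TMM, filterByExpr, R 4.3.3), with p-values adjusted by Benjamini-Hochberg over all genes tested. Genotype and stage were tested in 8 group means. Marker groups were tested in 96 sums with the library as a block. Genotype calls needed an adjusted p under 0.05, and the others a 2-fold difference as well. A library is 1 embryo, and cells are not replicates. Alternatives were RLE size factors, library totals, no filter, doublets kept, DESeq2 1.42.0, at least 2 UMIs of the marker, disjoint marker groups, 1 genotype alone, each library left out, and, chosen after seeing the data, leaving out the E17.5 M1 and F1 pairs. Fits of marker groups with a library left out reused the trended dispersion of the full fit. The fits were tested on simulated data.

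Replicate names pair the embryos: the labels call them litter-matched, and pair members deviated together in 16 of 16 pairs (correlation 0.130 to 0.827), 13 of them best with their own partner. The pair was a block in an alternative fit. Members, role lists and partner genes were chosen with earlier results of these data known. Named with values were the 4 members of each role with the most UMIs, members called or nearest to a call, and others by count or range. Further members and single libraries singled out in the text were chosen after their values were seen. Promoters came from RefSeq, and 32158 of 32285 gene identifiers, all members among them, were found in GENCODE M21.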

Additional observations from a re-analysis of the deposited data

Results flagged for a closer look

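Chance sets apart about 1 in 20 groups of 4 by the criterion used, a gap to the nearest sample that is large for the group's range. The cases listed are all among the 4 members of each role with the most UMIs. Other members can meet the criterion too, such as Kif1c in het M1 at E17.5, at 3.04 CPM (others 3.61 to 3.67). The number of groups looked at is not given here, so the cases may be no more than chance gives. In all cells, Kif2c in het M2 at E12.5 stood at 61.0 CPM, the other 3 at 46.1 to 47.4. Kif1b in WT M1 at E17.5 stood at 283 (others 140 to 146), and Kif21a in the same library at 238 (104 to 119). Kif2a in WT F1 at E16.0 stood at 40.6 (31.5 to 32.9). Kif24 was low in WT M2 at E12.5, at 3.01 (3.55 to 3.66). Kif6 was high in WT M1 at E12.5, at 0.962 (0.741 to 0.769), and low in WT M2 at E17.5, at 0.378 (0.751 to 0.80).

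The log2 contrast of Neurod6-detected with Top2a-detected cells differed between E17.5 and E12.5 in edgeR's test of that difference for 13 members. It was -2.08 for Kif14, -2.05 for Kif18b, -2.04 for Kif4, -1.90 for Kif11, -1.82 for Kif15 and -1.81 for Kif2c. It was -1.80 for Kif20a, -1.71 for Kif22, -1.61 for Kif23, -1.46 for Kif20b, -1.39 for Kif24 (adjusted p = 6.23e-07), -1.33 for Kif18a and -1.24 for Kif21b (adjusted p = 2.2e-13).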

How the results depend on the processing

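Counts of called members stayed within 1.5 times of the reported one under the alternatives run, with these exceptions. At E12.5, 3 members were called between genotypes with the replicate block (matched pair) and 1, Kif13b, without the E17.5 M1 and F1 pairs. The block changed no other count of genotype calls. In Top2a-detected cells 5 were called between stages without those pairs. In Eomes-detected cells 5 were called with at least 2 UMIs of the marker, 13 with disjoint groups, 4 without those pairs, 4 in WT alone, and 5 to 9 with single libraries left out. For Neurod6-detected against Eomes-detected cells, the 6 became 3 with RLE size factors, with library totals, with no filter, with no replicate block (no library block) and without the pairs, 1 with doublets kept, 16 with at least 2 UMIs, 15 with disjoint groups, and 2 to 6 with single libraries left out. Log2 folds of named members changed sign 17 times where the reported fold or the alternative passed the adjusted p, and 46 times where neither did. Of the former, in cells with 1 marker alone the stage fold became -0.48 for Kif5c and 0.44 for Kif26a in Top2a cells, -1.55 for Kif23 and 0.41 for Kif26a in Eomes cells, and 0.18 for Kif18a in Neurod6 cells. There the class contrast became 0.041 for Kif2a (Neurod6 against Top2a) and -0.027 for Kif5b, -0.25 for Kif1b and 0.84 for Kif26a (Eomes against Top2a), and the change of the Neurod6 against Top2a contrast with stage became -0.37 for Kif1b (-0.16 with at least 2 UMIs) and 0.72 for Kif21a. Without the M1 and F1 pairs the stage fold became -0.42 for Kif26a over all cells, -0.31 for Kif5c in Top2a-detected cells, and for Kif3a -0.058 in Eomes-detected and -0.098 in Neurod6-detected cells. In WT alone that of Kif22 in Top2a-detected cells became 0.014. The cause was not tested, beyond the smaller overlap that disjoint groups have by construction. Depth limits Kif6, Kif9, Kif17, Kif19a and Kif27, which had 41 to 198 UMIs in all in Top2a-detected or Eomes-detected cells.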
